A study of Mus musculus with 2 samples.

Results

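Thymic CD4 single positive (SP) T cells whose TCR beta chain carried a short CDR3, the loop made where the V, D and J segments join, are described here. A cell was included when at least 1 of its TRB (TCR beta) chains had a CDR3 of 12 or fewer amino acids, so the members were chosen by CDR3 length, and 1136 of the 9117 cell barcodes of the series met this rule. The comparison was with TRB chains of 13 to 16 amino acids, carried by 7467 cells. The TCR transcripts of CD4 SP thymocytes had been sequenced in 1 library from wild-type mice (WT, strain C57BL/6J) and 1 library from mice lacking BTLA in the germline (Btla-/-, labelled C57BL/6-Btla KO), all 8 to 12 weeks old. BTLA is an inhibitory receptor that dampens TCR signalling, and its loss in these mice was not restricted to T cells. The number of mice behind each library is not named, and the cells had been purified by negative selection with a kit for naive CD4 T cells. The libraries hold TCR transcripts alone, so neither the Btla genotype nor the CD4 SP identity could be checked against other genes.

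A TCR beta chain is built in 2 joining steps, in which a TRBD segment joins a TRBJ segment and a TRBV segment then joins the product. At each joint the ends of the segments are trimmed by nucleases, and bases not found in the germline are added, mostly by terminal deoxynucleotidyl transferase (TdT). The CDR3 runs from a conserved cysteine at the end of TRBV to a conserved phenylalanine in TRBJ, and it is the part of the beta chain that lies over the peptide held by the MHC molecule. Its length therefore follows from which segments were used, how far each was trimmed and how many bases stand between them.

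The germline ends that the results turn on are shown first, 5′ to 3′, because they set how many bases a segment can give to the CDR3. They were read from GRCm38. The V ends run from the cysteine codon to the end of the segment, and the J parts run from the start of the segment to the phenylalanine codon. TRBV20 (chr6:41188273-41188977) was the V gene with the largest gain in short chains and TRBV5 (chr6:41062332-41062803) the one with the largest loss, both by the mean difference over the libraries. TRBJ2-7 (chr6:41543810-41543856) and TRBJ1-1 (chr6:41533864-41533911) were the J genes that gained, and TRBJ2-3 (chr6:41543223-41543271) had the largest loss by the same measure. All are on the plus strand and are annotated as TCR gene segments. TRBD1 (chr6:41533201-41533212) is shown because any D bases kept in a chain are counted among its inserted bases.
TRBV20: tgtggtgctaggga
TRBV5: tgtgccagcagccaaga
TRBD1: gggacagggggc
TRBJ2-7: ctcctatgaacagtacttc
TRBJ1-1: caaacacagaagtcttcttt
TRBJ2-3: agtgcagaaacgctgtatttt
TRBV20 could give 14 bases against 17 for TRBV5. TRBJ2-7 held 19 bases of CDR3, the fewest of the 12 J genes, TRBJ1-1 held 20 and TRBJ2-3 held 21.

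The WT library held 4141 TRB chains in 4009 cells, and the Btla-/- library 5181 TRB chains in 5014 cells. Short chains were read as deeply as the others: the median number of unique molecular identifiers (UMIs, each marking 1 captured transcript) per chain was 14 for short and 13 for 13 to 16 amino acid chains in WT, and 11 and 10 in Btla-/-. Of the short chains, 2.06% in WT and 2.64% in Btla-/- rested on fewer than 3 UMIs, against 2.10% and 2.55% of the longer ones. In all, 30 barcodes occurred in both libraries, among them those of 6 WT and 5 Btla-/- members, and no barcode was a member in both. Each genotype is a single library, so the spread between replicates is unknown and no p-value is given. All intervals are 95% intervals that cover counting error only. For a length comparison a gene is called higher or lower where the exact intervals of the length classes lay apart in the same direction in both libraries. Taking the libraries as a pair could not have helped, since the smallest 2-sided exact p it allows is 0.5.

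Short chains made up the lower edge of a single-peaked length distribution. In WT, 533 of 4009 cells with a TRB chain had one, or 13.3% (interval 12.3 to 14.4). In Btla-/- 603 of 5014 cells did, or 12.0% (11.1 to 12.96). The Btla-/- share was 1.27 percentage points below the WT share, and the interval of the difference, -2.67 to 0.125 percentage points, included 0. Just inside the threshold, 12 amino acids, lay 348 WT and 397 Btla-/- chains, and just outside it, at 13 amino acids, lay 634 and 796. At 11 amino acids there were 147 and 152 chains and at 10 amino acids 30 and 48. Below 10 amino acids 9 chains remained in each library, so most members sat within 1 or 2 residues of the threshold.

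**Figure D1:**
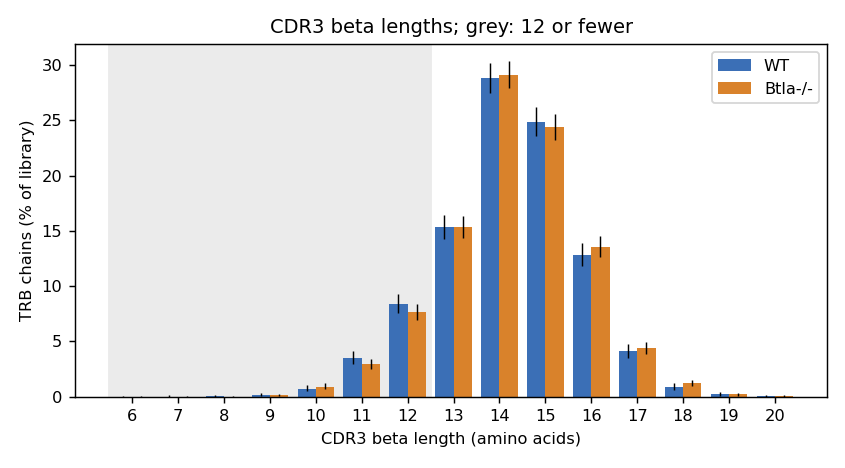
Share of TRB chains at each CDR3 beta length in amino acids, as percent of the library, for WT (blue) and Btla-/- (orange); lines are exact 95% intervals and grey marks 12 or fewer amino acids. Both libraries peak at 14 amino acids, and the share falls from 8.40% and 7.66% at 12 amino acids to under 1% at 10.

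Members carried a second TRB chain more often than other cells with a TRB chain. In WT 43 of 533 members, 8.07% (5.90 to 10.7), held more than 1, against 2.56% (2.06 to 3.14) of the other cells. In Btla-/- 44 of 603, 7.30% (5.35 to 9.67), did, against 2.79% (2.32 to 3.32). A cell with more chains has more chances to meet the rule, so this excess follows at least in part from the rule itself. Both chains were short in 1 WT and 3 Btla-/- members.

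The shortest chains show how little sequence can stand between the cysteine and the phenylalanine. Germline bases are in lower case and inserted bases, those matching neither the called V nor the called J end, are in capitals. The first pair below are the shortest chains that end in a phenylalanine codon in WT, the next is the shortest such chain in Btla-/-, and the last 3 are all the short chains whose listed CDR3 did not end in one.
WT, TRBV12-2 to TRBJ2-1, 8 amino acids: tgtgccagctctgagcagttcttc
WT, TRBV15 to TRBJ2-4, 8 amino acids: tgtgccagcagtCCCCtgtacttt
Btla-/-, TRBV15 to TRBJ2-7, 8 amino acids: tgtgccagcagCCCCCGgtacttc
WT, TRBV13-2 to TRBJ2-5, 7 amino acids: tgtgccagcggtgatgAACGG
Btla-/-, TRBV13-2 to TRBJ2-7, 6 amino acids: tgtgccagcggtgaCAGG
Btla-/-, TRBV12-1 to TRBJ1-1, 9 amino acids: tgtgccagctctcCGGGACAGGGGGCG
The WT chain of TRBV12-2 and TRBJ2-1 joined 12 V bases directly to 12 J bases. In the last 3 the conserved phenylalanine that the rule counts was missing from the listed CDR3. J bases were matched back from that codon, so no J base was counted there, and any that are present stand in capitals. These 3 chains came from single cells with 12, 3 and 9 UMIs.

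Short chains differed from longer ones in every piece of the junction, and most in the bases between the germline ends. The number of inserted bases, which includes any remaining TRBD sequence, averaged 6.45 ± 3.22 (SD over 534 chains) in WT short chains against 10.8 ± 3.44 in 13 to 16 amino acid chains. In Btla-/- it averaged 6.38 ± 3.36 (SD over 606 chains) against 10.9. Germline J bases averaged 15.7 against 18.8 in WT and 15.6 against 18.8 in Btla-/-. Germline V bases averaged 12.5 against 13.7 in WT and 12.6 against 13.6 in Btla-/-. These 3 parts add up to the length that chose the chains, so the numbers describe how the length was divided and were not tested. Of the 8.63 bases by which the classes differed in WT, inserted bases made up 50.2%, J bases 36.1% and V bases 13.8%. In Btla-/- the classes differed by 8.70 bases, divided 51.9%, 36.4% and 11.7%. The division was nearly the same in both genotypes.

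The loss of J bases came mainly from trimming. WT short chains had lost 4.73 ± 2.79 (SD) bases of their J segment against 2.36 ± 2.28 in longer chains, and Btla-/- short chains 4.80 ± 3.02 against 2.43. An untrimmed J segment was kept in 6.18% of WT and 8.25% of Btla-/- short chains but in 32.2% of the longer chains of each library. An untrimmed V end was kept in 12.5% and 13.4% of short chains against 22.7% and 21.7%. The choice of a J gene with a shorter CDR3 part accounted for 0.74 bases in WT and 0.80 in Btla-/-, and the choice of V gene for 0.14 and 0.24.

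**Figure D2:**
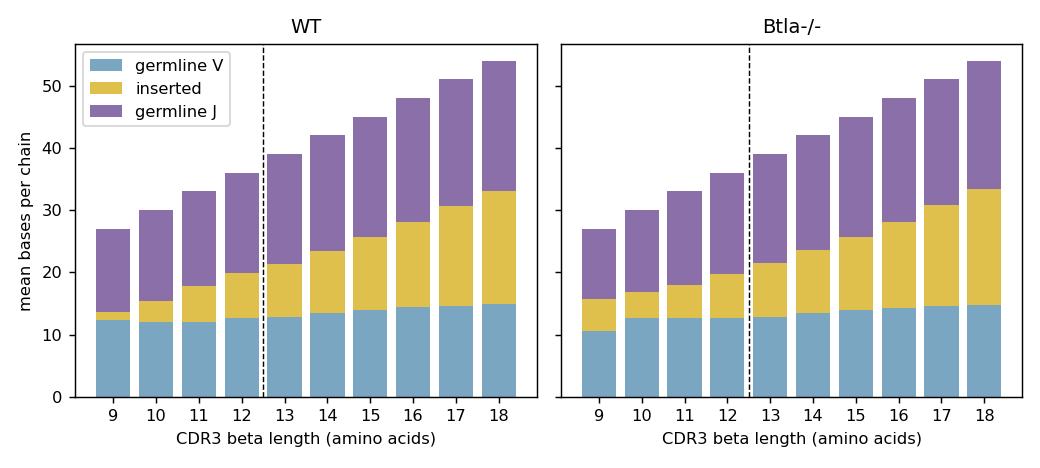
Mean germline V (blue), inserted (yellow) and germline J (purple) bases per chain at each CDR3 beta length in amino acids, in WT (left) and Btla-/- (right); the dashed line is the threshold. Inserted bases account for most of the growth, from 7.12 (WT) and 7.09 (Btla-/-) at 12 amino acids to 13.6 and 13.8 at 16, while V bases grow from 12.7 and 12.6 to 14.5 and 14.3.

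Direct joins without any inserted base were found almost only among short chains. There were 15 in WT, 2.81% of short chains (1.58 to 4.59), and 14 in Btla-/-, 2.31% (1.27 to 3.85). Among 13 to 16 amino acid chains there were 2 in WT and none in Btla-/-, for which the upper limit of the exact interval is 0.0863%. Joins with 3 or fewer inserted bases made up 19.5% of WT and 21.3% of Btla-/- short chains, against 1.39% and 1.01%. A direct join can be no longer than its V and J ends together, and few inserted bases make a short chain. These contrasts are therefore in large part fixed by length. Some of the direct joins, one per line, show the V and J ends meeting.
WT, TRBV10 to TRBJ2-7: tgtgccagcagctatgaacagtacttc
WT, TRBV12-2 or TRBV13-2 to TRBJ2-7: tgtgccagcggtgatgaacagtacttc
Btla-/-, TRBV15 to TRBJ2-7: tgtgccagcagtttatatgaacagtacttc
Btla-/-, TRBV16 to TRBJ2-2: tgtgcaagcagctccgggcagctctacttt
For contrast, one of the WT chains of 13 to 16 amino acids that had a D call and recurred most (4 cells, TRBV1 to TRBJ2-4, TRBD1 called) read:
WT, 16 amino acids: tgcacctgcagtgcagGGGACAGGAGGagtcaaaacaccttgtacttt
It kept 16 V bases, 11 inserted bases and an untrimmed J segment of 21 bases. The second direct join has the joint call of TRBV12-2 and TRBV13-2, and its V bases were matched to the TRBV13-2 end, which it holds in full. The name TRBV10 in the first line is the one in the contig annotation. The sequence read by these 497 chains lies in the annotation's functional gene Trbv4 (chr6:41059394-41059886), and its germline end holds an in-frame stop codon from base 13 of the CDR3, of which no chain kept more than 14 bases.

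D segments were rarely recognised in short chains. No D segment was called in 93.6% (91.2 to 95.6) of WT short chains against 75.6% (74.1 to 77.0) of longer ones, and in 93.6% (91.3 to 95.4) against 77.0% (75.7 to 78.2) in Btla-/-. TRBD1 was called in 5.62% against 18.03% in WT and 5.94% against 16.5% in Btla-/-. TRBD2 was called in 0.749% against 6.40% and in 0.495% against 6.58%. A short insert leaves fewer bases to recognise a D segment by, so part of this is fixed by length. A run of at least 5 inserted bases shared with a germline TRBD was present in 44.4% of short chains of each library, against 81.3% and 81.0% of longer chains.

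TRBJ genes, which form 2 clusters each lying behind its own D segment, were used very differently by short chains. Of the 12 J genes 2 were higher and 5 lower in short chains in both libraries, which is 58.3% of those compared. The shares of the 12 genes add up to all chains of a length class, so a gain in some genes lowers the shares of the others. Whether any of the 5 lower genes fell by more than the gain of the 2 higher ones requires was not tested. TRBJ2-7 and TRBJ1-1 together were carried by 53.0% (48.7 to 57.3) of WT short chains against 25.3% (23.8 to 26.8) of longer ones. In Btla-/- they were carried by 52.5% (48.4 to 56.5) against 23.6% (22.4 to 24.9).

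TRBJ2-7 was in 165 of 534 WT short chains, 30.9%, against 14.5%, a difference of 16.4 percentage points (12.3 to 20.7). In Btla-/- it was in 197 of 606, 32.5%, against 13.1%, a difference of 19.4 points (15.6 to 23.4). TRBJ1-1 was in 22.1% against 10.8% in WT, a difference of 11.3 points (7.68 to 15.2), and in 20.0% against 10.6% in Btla-/-, a difference of 9.41 points (6.15 to 12.9). Together with TRBJ1-2 these are the J genes that hold the fewest CDR3 bases. In cells with exactly 1 TRA and 1 TRB chain 3 J genes met the calling rule, and with short set to 11 or fewer amino acids 4 did. TRBJ2-7, TRBJ1-1 and TRBJ2-3 met it under all 10 other settings that could change J use.

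Among the J genes that were lower, TRBJ2-3 was in 4.12% of short against 8.88% of longer chains in WT, a difference of -4.76 points (-6.59 to -2.51), and in 3.14% against 9.64% in Btla-/-, a difference of -6.51 points (-8.05 to -4.58). TRBJ2-1 was in 6.74% against 10.6% in WT, a difference of -3.85 points (-6.11 to -1.18), and in 4.46% against 10.7% in Btla-/-, a difference of -6.20 points (-7.98 to -4.03). TRBJ1-3 was in 3.18% against 6.76% in WT, a difference of -3.58 points (-5.17 to -1.54), and in 2.64% against 6.55% in Btla-/-, a difference of -3.91 points (-5.28 to -2.15). TRBJ2-2 and TRBJ1-4, which hold 23 CDR3 bases each, were lower too, with 1.87% against 5.67% and 5.06% against 8.18% in WT. The WT intervals of TRBJ1-4 only just parted, at 7.27%, and it no longer met the calling rule under 9 of the 10 other settings that could change it, among them leaving out chains with fewer than 3 UMIs. TRBJ1-6, which holds the most CDR3 bases of all, 25, was lower in WT, 1.12% against 4.40%, while its intervals overlapped in Btla-/-, 2.31% against 3.63%. TRBJ1-5, TRBJ2-4 and TRBJ2-5 overlapped in both libraries.

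The share of a J gene's own chains that were short followed its germline length only loosely. It was highest, 25.04% and 25.7%, for TRBJ2-7 (19 bases), and 23.9% and 20.8%, for TRBJ1-1 (20 bases). The lowest shares were 3.51% for TRBJ1-6 (25 bases) in WT and 3.97% for TRBJ2-3 (21 bases) in Btla-/-. Spearman's rho across the 12 J genes was -0.63 in each library, a description over genes that share libraries. TRBJ1-2 holds 20 bases like TRBJ1-1, yet 7.49% of its WT chains and 13.6% of its Btla-/- chains were short. Over all lengths its segment had lost 1.55 and 1.64 bases on average against 2.69 and 2.88 for TRBJ1-1 and 3.53 and 3.70 for TRBJ2-7. The use of the clusters did not part: TRBJ1 genes were in 39.5% of short and 40.8% of longer chains in WT, a difference of -1.25 points (-5.74 to 3.35), and in 41.7% and 40.7% in Btla-/-, a difference of 1.07 points (-3.17 to 5.37).

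**Figure D3:**
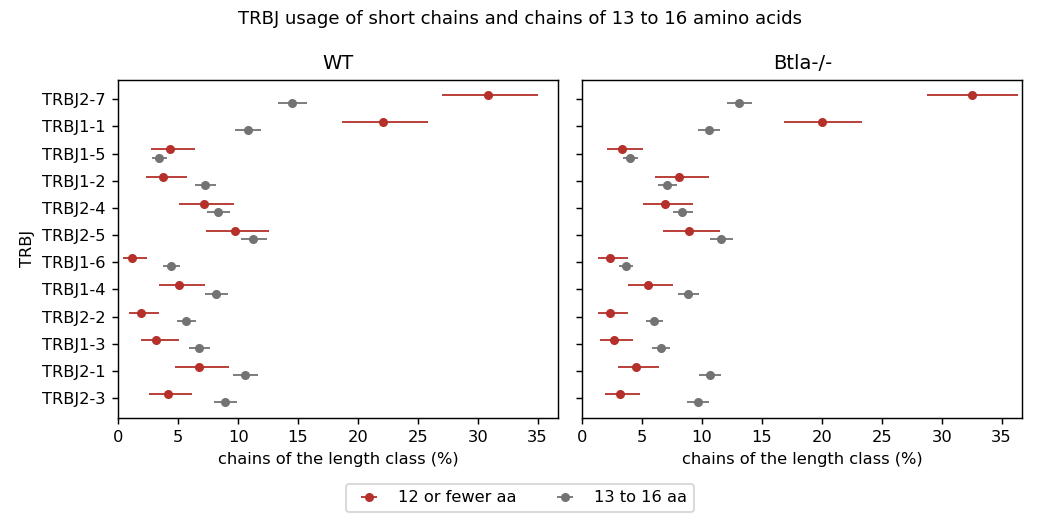
Share of chains with each TRBJ gene, in percent of the length class, for short chains (red) and chains of 13 to 16 amino acids (grey) in WT (left) and Btla-/- (right); lines are exact 95% intervals and genes are ordered by the mean difference. TRBJ2-7 and TRBJ1-1 stand apart to the right, at 30.9% and 22.1% in WT and 32.5% and 20.0% in Btla-/-, while most other genes lie to the left of their grey points.

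TRBV genes, which give the CDR3 its first residues and hold the loops that lie over the MHC helices, differed less. Of 21 V gene calls used in at least 1% of the chains of a library, 1 was higher and 3 were lower in short chains in both libraries, 19% of those compared. TRBV20 was in 41 of 534 WT short chains, 7.68% (5.57 to 10.3), against 2.74% (2.22 to 3.35), a difference of 4.93 points. In Btla-/- it was in 46 of 606, 7.59% (5.61 to 10.0), against 2.93% (2.44 to 3.48), a difference of 4.66 points. Of all TRBV20 chains 29.9% were short in WT and 26.0% in Btla-/-. Its germline end, printed above, was the shortest among these genes.

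The 3 lower genes each had 17 germline bases, as had 11 of the 21 calls in all. Across the 21 calls, Spearman's rho between germline V bases and the share of a gene's chains that were short was -0.30 in WT and -0.60 in Btla-/-, again a description. TRBV5 was in 3.56% (2.16 to 5.501) of WT short chains against 7.50% (6.63 to 8.44), and in 3.63% (2.29 to 5.45) of Btla-/- short chains against 7.35% (6.59 to 8.17). TRBV1 was in 3.18% (1.87 to 5.05) against 6.14% (5.35 to 7.001) in WT and in 1.82% (0.910 to 3.22) against 5.57% (4.90 to 6.30) in Btla-/-. TRBV3 was in 3.75% (2.30 to 5.73) against 6.88% (6.05 to 7.78) in WT and in 3.63% (2.29 to 5.45) against 6.30% (5.59 to 7.07) in Btla-/-. TRBV31 and TRBV12-2 were higher in Btla-/- alone, TRBV31 with 6.93% against 3.75% there and 4.49% against 4.07% in WT. Of the 21 calls, 13 differed in the same direction in both libraries. None of the 21 met the rule in cells with exactly 1 TRA and 1 TRB chain, or with short set to 11 or fewer amino acids, and TRBV3 did not under 5 of the 11 settings that could change V use.

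**Figure D4:**
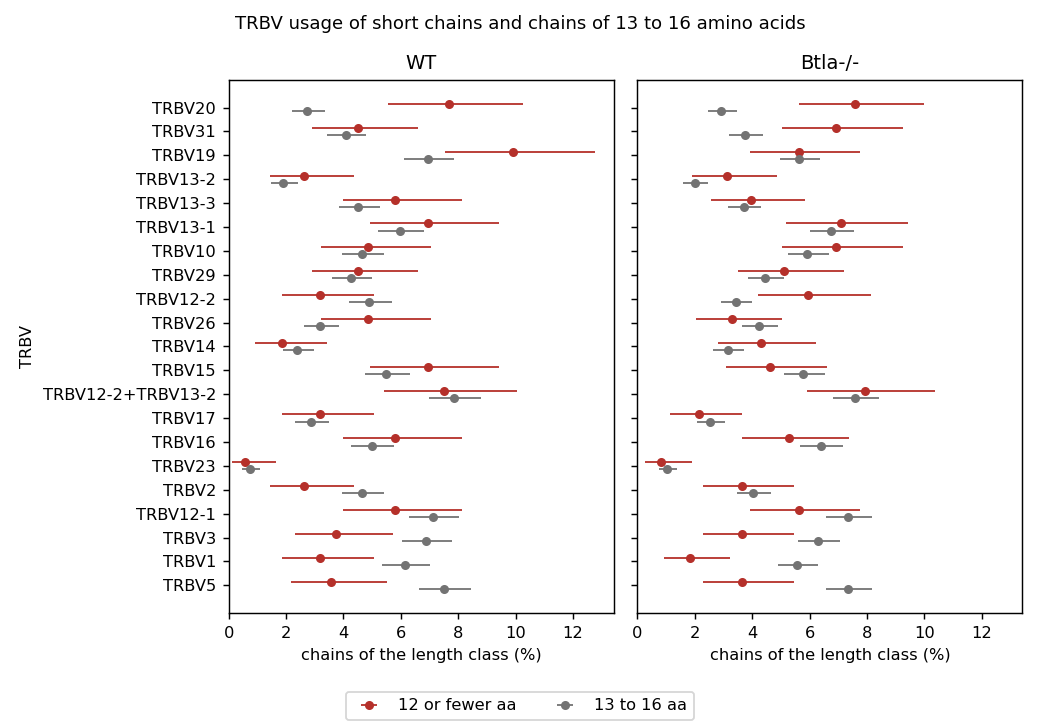
Share of chains with each TRBV gene call, in percent of the length class, for short chains (red) and chains of 13 to 16 amino acids (grey) in WT (left) and Btla-/- (right); lines are exact 95% intervals and genes are ordered by the mean difference. TRBV20 at the top lies to the right of its grey point in both libraries (7.68% and 7.59%), and TRBV3, TRBV1 and TRBV5 at the bottom lie to the left.

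The centre of the loop, taken as the residues between the first 3 and the last 4 of the CDR3, held 4.55 residues per chain in WT and 4.54 in Btla-/- short chains against 7.43 and 7.44. A larger share of them was charged: 23.3% (21.6 to 25.005) of 2432 residues against 19.3% (18.8 to 19.8) in WT, and 22.7% (21.2 to 24.3) of 2752 against 19.9% (19.5 to 20.3) in Btla-/-. The basic residues lysine and arginine made up 10.2% against 7.18% in WT and 10.2% against 7.32% in Btla-/-, with intervals apart in both. The centre starts at position 4, which a V end can still encode, and the TRBV20 end encodes arginine there. How much the higher use of TRBV20 in short chains adds to this difference was not tested. Acidic residues made up 13.1% against 12.1% and 12.5% against 12.6%, with overlapping intervals. The mean net charge of the centre, summed over each chain, was -0.131 against -0.366 in WT and -0.107 against -0.391 in Btla-/-. A short chain has fewer centre residues to sum over, so part of this difference is fixed by length. Hydrophobic residues were 17.7% against 18.98% and 17.5% against 19.1%. Glycine, which germline TRBD segments encode, was present in 59.4% of WT short chains against 81.8%, and in 56.9% against 82.4% in Btla-/-, although as a share of residues it was 17.7% against 19.7% and 16.6% against 19.6%. The residues of a chain are not independent, so these intervals are too narrow.

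As a class, short CDR3 amino acid sequences occurred in both libraries more often than longer ones, but the intervals at 12 and 13 amino acids overlapped. With the V and J call required as well the shares differed in the same direction. They then rested on few shared sequences, and the classes' intervals overlapped. Of the distinct amino acid sequences, 26 were found in both, which is 5.25% (3.46 to 7.60) of the 495 in WT and 4.54% (2.99 to 6.58) of the 573 in Btla-/-. Of the 13 to 16 amino acid sequences 87 were found in both, 2.71% (2.17 to 3.33) of 3214 and 2.16% (1.74 to 2.66) of 4021. Fewer residues leave fewer possible sequences, so part of this is fixed by length. With the V and J call, 5 short and 13 longer sequences were found in both. The shares were 0.994% (0.324 to 2.30) against 0.400% (0.213 to 0.683) in WT and 0.865% (0.281 to 2.01) against 0.319% (0.170 to 0.545) in Btla-/-. A share also depends on how many sequences of its class the other library holds, which was fewer for short chains. Of all pairs of a WT and a Btla-/- amino acid sequence, 91.7 ppm matched among short and 6.73 ppm among longer ones. Sequences of unlike length cannot match, so pooling 13 to 16 amino acids puts the longer rate below that of each single length. Pairs of like length matched at 121.6 ppm at 12 and 45.7 ppm at 13 amino acids. The rates were 29.4 ppm at 14, 13.5 ppm at 15 and 11.9 ppm at 16. With the V and J call 17.2 and 0.981 ppm matched in the pooled classes, and 23.8 ppm at 12 against 4.40 ppm at 13 amino acids. No interval was computed for these rates. The nucleotide sequence was the same in 6 short and 8 longer cases, and with the V and J call it was the same in none of the short chains and 3 of the longer ones.

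**Figure D5:**
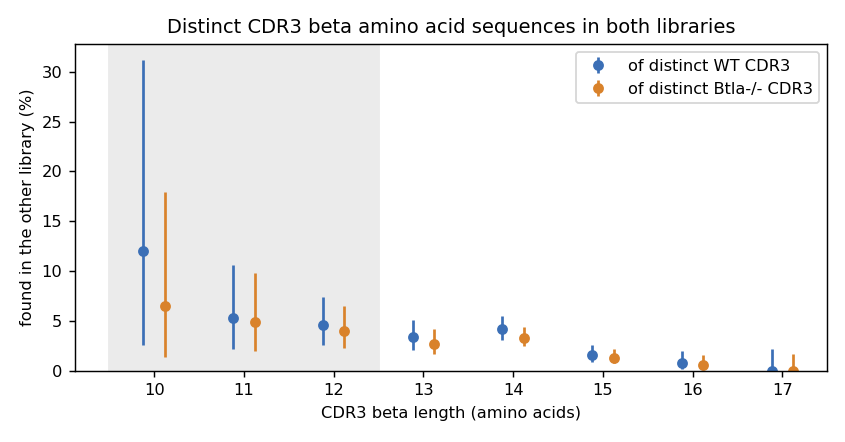
Share of the distinct CDR3 beta amino acid sequences of each library that were also found in the other library, in percent, by length in amino acids; lines are exact 95% intervals and grey marks 12 or fewer amino acids. Of the lengths plotted, 10 to 17 amino acids, shares are highest at 10, with 12.0% of WT and 6.52% of Btla-/- sequences and wide intervals, and are 0.784% and 0.606% at 16.

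The short chains shared at the amino acid level carried fewer inserted bases than the rest. Shared ones averaged 3.93 ± 2.37 (SD over 28 distinct chains) inserted bases in WT against 6.60 ± 3.25 in those not shared, and 3.83 ± 2.82 (SD over 29) against 6.49 ± 3.32 in Btla-/-. The sequence of 10 amino acids seen in the most cells, 2 in WT and 3 in Btla-/-, always ended in TRBJ2-7 trimmed by 7 bases and was reached from several V genes through 3 or 4 inserted bases.
WT, TRBV15: tgtgccagcagtttGGGCgaacagtacttc
WT, TRBV15: tgtgccagcagtttGGGGgaacagtacttc
Btla-/-, TRBV14: tgtgccagcagtttGGGGgaacagtacttc
Btla-/-, TRBV12-2: tgtgccagctctctcGGGgaacagtacttc
Btla-/-, TRBV26: tgtgccagcagtctgGGGgaacagtacttc
One WT and one Btla-/- line are the same 30 bases under different V calls. Another 12 amino acid chain was the same base for base in 1 WT cell (TRBV5) and 2 Btla-/- cells (TRBV2), V genes whose germline ends read alike.
TRBV5 or TRBV2 to TRBJ1-4: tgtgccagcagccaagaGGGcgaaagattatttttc

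Few short chains recurred within a library. The same V, J and CDR3 nucleotides were found in 2 or more cells for 20 of 505 distinct short chains in WT and 24 of 581 in Btla-/-. The most frequent were in 4 WT cells each and in 3 Btla-/- cells, and they held 6 to 8 inserted bases. All short chains averaged 6.45 in WT and 6.38 in Btla-/-.
WT, TRBV13-3 to TRBJ1-1, 4 cells: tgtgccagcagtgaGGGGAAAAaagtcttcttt
WT, TRBV29 to TRBJ2-7, 4 cells: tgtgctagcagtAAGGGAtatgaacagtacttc
Btla-/-, TRBV14 to TRBJ2-7, 3 cells: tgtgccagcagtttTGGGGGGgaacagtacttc
Chains in such repeats made up 9.18% (6.87 to 11.9) of short and 6.58% (5.77 to 7.47) of longer chains in WT, and 8.09% (6.04 to 10.5) and 8.85% (8.01 to 9.74) in Btla-/-, so the classes overlapped.

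The TRA (TCR alpha) chain, which the rule did not use, showed no clear partner for a short beta CDR3. Among cells with 1 TRB chain, a TRA chain was found in 43.3% (38.8 to 47.8) of WT cells with a short chain against 40.0% (38.3 to 41.7) of those with a longer one, and in 34.5% (30.6 to 38.6) against 32.4% (30.9 to 33.8) in Btla-/-. The TRA CDR3 averaged 13.7 ± 1.32 (SD over 232 chains) amino acids in WT against 13.8, a difference of -0.035 (-0.222 to 0.153). In Btla-/- it averaged 13.7 ± 1.61 (SD over 202 chains) against 13.7, a difference of -0.048 (-0.283 to 0.188). Of the 16 TRAV subgroups none met the calling rule, 0% of those compared. The subgroups with the largest mean differences were TRAV6, -2.65 and -6.02 points in WT and Btla-/-, TRAV12, -3.69 and -0.05 points, TRAV5, 0.90 and 3.63 points, and TRAV4, -0.64 and 4.50 points. TRAJ1 to TRAJ30, the J segments lying farther from the V genes, were in 44.8% of the TRA chains of WT cells with a short chain against 48.8%, and in 57.4% against 56.6% in Btla-/-.

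Between the genotypes, the design gives no replicate error to set a difference against. Of 33 TRBV and TRBJ genes, 1 had intervals apart between Btla-/- and WT within short chains, 3.03%, the same share as among 13 to 16 amino acid chains, 3.03%. Within short chains this was TRBJ1-2, with 20 of 534 chains in WT, 3.75% (2.30 to 5.73), and 49 of 606 in Btla-/-, 8.09% (6.04 to 10.5), a difference of 4.34 points (1.49 to 7.195). In 13 to 16 amino acid chains TRBJ1-2 was in 7.23% and 7.09%. The gene with intervals apart among those chains was TRBV12-2, with 4.90% in WT and 3.42% in Btla-/-. That difference was -1.48 points (-2.42 to -0.565), opposite in direction to the one of TRBV12-2 within short chains. By the less strict measure of a difference interval that leaves out 0, 4 of the 33 genes differed within short chains and 5 within the longer ones. The other short-chain genes were TRBV19, 9.93% in WT and 5.61% in Btla-/-, a difference of -4.31 points (-7.64 to -1.10), TRBV12-2, a difference of 2.76 points (0.203 to 5.31), and TRBV14, a difference of 2.42 points (0.286 to 4.58). The TRBJ1-2 intervals met again when each distinct chain was counted once. Inserted bases, J trimming and the share without a D call in short chains differed between the libraries by less than their counting intervals.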

How the data were processed

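TCR libraries of thymic CD4 SP cells, 1 from WT and 1 from Btla-/- mice, were analysed. Per the labels, the authors assembled contigs with Cell Ranger 7.2.0 against GRCm38. The deposited annotations list, for each contig, its raw counts (reads, and UMIs) as Cell Ranger gave them, and these were used with the V, D, J and CDR3 calls. The authors' summary tables were not used. Contigs held 26700294 reads and 80347 UMIs in WT and 22026825 reads and 75456 UMIs in Btla-/-. All productive TRB contigs of called cells entered, and no doublets were removed. The TRB ends were read from GRCm38 with GENCODE annotation. Germline V bases were matched from the cysteine codon, J bases from the phenylalanine codon, and bases that both could give went to V, so added bases that match the germline by chance count as germline. Chains with the joint call of TRBV12-2 and TRBV13-2 were matched to the TRBV13-2 end. Of 21 V genes, 20 lay at the gene of that name. Shares carry exact Clopper-Pearson intervals, differences a square-and-add interval built from them, and means 1.96 standard errors. Members and gene lists were chosen with earlier results of these data known. Named genes were those meeting the calling rule, with full values for the largest differences. Python 3.11.15, scipy 1.17.1 and pandas 2.3.3 were used. Scripts were tested on simulated junctions and shares.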

Additional observations from a re-analysis of the deposited data

Results flagged for a closer look

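For 2 genes the difference between short chains and chains of 13 to 16 amino acids pointed in opposite directions in the libraries, with intervals apart in 1 of them. TRBJ1-2 was lower in short chains by -3.49 percentage points in WT and higher by 0.99 in Btla-/-. TRBV12-2 was lower by -1.72 points in WT and higher by 2.52 in Btla-/-. The difference between the libraries was not tested.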

How the results depend on the processing

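No paired analysis was possible because each genotype has 1 library, which gives the genotypes a single pair; the length classes were compared within each library. Under 14 other settings there were 137 values for the main results. Of these, 114 stayed within their counting interval or within 1.5 times a count, and 23 moved. Some of the 114 could not move, such as the mean inserted bases with J matched before V. A reversal could be recorded only for a difference whose main interval left out 0. Among the 137 values this held for the share without a D call alone, and none reversed. All 228 differences of single genes kept their sign. These were the genes that met the calling rule in the main setting, and some of the 228 could not change. Reading the joint call of TRBV12-2 and TRBV13-2 as TRBV13-2, for example, left the 4 called V genes as they were. Matching J before V, and leaving out the chains without phenylalanine, were chosen after seeing the data. With short set to 11 or fewer amino acids, the share of cells was 4.64% in WT and 4.17% in Btla-/-, the inserted bases 5.19 and 5.05, the WT TRA length 13.9, the WT excess without a D call 22.3 points, and the calls 4 TRBJ and 0 TRBV genes. With 13 or fewer, compared with 14 to 16, the shares were 28.9% and 27.7%, the inserted bases 7.58 and 7.62, and the Btla-/- excess without a D call 13.6 points. In cells with exactly 1 TRA and 1 TRB chain, 3 TRBJ and 0 TRBV genes were called and the shared amino acid sequences were 2.19% and 2.23%. Requiring the V and J call as well gave 0.994% and 0.865% for short sequences, against 0.400% and 0.319% for longer ones. The genotype count within short chains was 0 in those cells, with each distinct chain once, and at both other thresholds. The cause of these changes was not tested. The stricter settings leave fewer chains, while 13 or fewer amino acids gives more short chains.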

Other observations

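Semi-invariant TCRs were rare among cells with 1 TRB chain and a TRA chain. The iNKT-like combination, TRAV11 or TRAV11D with TRAJ18, was found in 3 of 212 WT cells with a short beta CDR3, 1.42% (0.293 to 4.08), against 4 of 1268 cells with a longer one, 0.315% (0.0860 to 0.806). In Btla-/- it was found in 0 of 193 cells, where the exact upper limit is 1.89%, against 9 of 1295, 0.695% (0.318 to 1.32). The MAIT-like combination, TRAV1 with TRAJ33, was found in none of the cells with a short beta CDR3 in either library. These intervals overlap, and the counts are too few to order the groups.

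Serine at position 4 of the CDR3, encoded by most TRBV ends, was present in 63.3% (59.0 to 67.4) of WT short chains against 79.6% (78.2 to 80.9), and in 62.7% (58.7 to 66.6) against 80.0% (78.8 to 81.2) in Btla-/-. Short chains kept fewer V bases, and V bases count towards the length that chose the chains. Part of this difference can therefore follow from the rule. The share due to trimming, or to TRBV20, whose end encodes arginine there, was not tested.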
